A study of Homo sapiens with 6 samples.

Results

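The 6 messenger RNAs described here are the ones that human mitochondrial DNA contributes to respiratory complexes III, IV and V: MT-CYB, MT-CO1, MT-CO2, MT-CO3, MT-ATP6 and MT-ATP8. They were found by symbol in a table of 35106 genes, and all 6 were present once and passed the filter on low counts. RNA was sequenced from HCT116 cells, an established human colon carcinoma line labelled wild type, in 3 untreated libraries (treatment label none) and 3 libraries from cells that had 24 h of curcumin, the main polyphenol of turmeric root. The labels give the dose as 30 with a length unit (micrometres), read here as 30 µM. The sources used here name no solvent control and do not say whether replicates came from separate cultures, so the spread behind each p-value is that of these libraries and may be technical. The series title names inhibition of colon cancer cells by curcumin, and treated against untreated cells is the comparison of its design.

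Mitochondrial DNA is a small circular genome kept in many copies in the mitochondrial matrix. It is transcribed by the polymerase POLRMT into long RNAs that cover nearly a whole strand, which are then cut, mostly at the transfer RNAs that stand between the coding genes. All of its messenger RNAs therefore begin as parts of shared precursors, and their separate levels depend on processing and decay. MT-CYB encodes cytochrome b, the ubiquinol-oxidising core of complex III. MT-CO1, MT-CO2 and MT-CO3 encode the catalytic core of cytochrome c oxidase, complex IV, which hands electrons to oxygen. MT-ATP6 and MT-ATP8 encode membrane subunits of ATP synthase, complex V, and are read from a single RNA with overlapping frames. The other subunits of these complexes are made from nuclear genes.

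Along the mitochondrial chromosome of GRCh38, in the GENCODE release 29 annotation, each of the 6 genes is a single exon on the plus strand. MT-CO1 spans positions 5904 to 7445, MT-CO2 7586 to 8269, MT-ATP8 8366 to 8572, MT-ATP6 8527 to 9207, MT-CO3 9207 to 9990 and MT-CYB 14747 to 15887. The last 46 bases of MT-ATP8 are the first 46 bases of MT-ATP6 (positions 8527 to 8572), which leaves MT-ATP8 161 bases of its own out of 207. A read inside the shared stretch cannot be given to either gene by its sequence. The stretch is shown in capitals at the end of MT-ATP8 and at the start of MT-ATP6, written 5′ to 3′ as DNA, because how it was counted bears on both genes and is not given in the sources used here.
MT-ATP8 end: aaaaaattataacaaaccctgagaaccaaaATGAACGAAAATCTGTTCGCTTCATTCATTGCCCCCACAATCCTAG
MT-ATP6 start: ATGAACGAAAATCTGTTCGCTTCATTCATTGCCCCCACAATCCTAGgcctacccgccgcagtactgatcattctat

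The nuclear genome also carries old copies of these genes as pseudogenes, and 179 rows of the table bore the name of a copy of 1 of the 6. Only 2 of them averaged at least 5 CPM (counts scaled to a common library total, here with the TMM factors described further on): MTATP6P1 (chromosome 1, 633696 to 634376) and MTCO1P12 (chromosome 1, 631074 to 632616). MTATP6P1 matched MT-ATP6 at 671 of 681 aligned bases (98.53%) and MTCO1P12 matched MT-CO1 at 1522 of 1542 (98.70%). The first 60 bases of MT-ATP6 and of its copy, and bases 90 to 149 of MT-CO1 and of its copy, show how little separates them, with the single differing base of each pair in capitals.
MT-ATP6: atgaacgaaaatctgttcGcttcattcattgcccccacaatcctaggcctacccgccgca
MTATP6P1: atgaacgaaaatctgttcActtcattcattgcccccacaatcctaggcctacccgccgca
MT-CO1: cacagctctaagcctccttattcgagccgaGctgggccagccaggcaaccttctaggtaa
MTCO1P12: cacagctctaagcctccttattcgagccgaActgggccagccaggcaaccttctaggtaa
How reads were shared between such pairs is not given in the sources used here. MTATP6P1 held 3.30% to 3.67% of the count of MT-ATP6 in every library, and MTCO1P12 held 0.138% to 0.200% of that of MT-CO1. Both copies rose with curcumin (log2 fold change 1.84 ± 0.24 and 1.81 ± 0.27, edgeR adjusted p = 0.00017 and 0.00031), with no call for MTATP6P1 in a fit corrected for each library's trend of count with transcript length, called the length-corrected fit from here on (0.63, adjusted p = 0.081). Adding all copies to their gene left the 6 genes' calls as they were.

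The scale on which the libraries are compared matters for every value that follows. Library totals ran from 16663562 to 20311769 counts. TMM factors, which set the scale by the middle of the gene distribution, ran from 1.30 to 1.34 for the untreated group and from 0.716 to 0.804 for the treated group, and scaling by library totals alone, with no such factors, moved the median log2 fold change of all genes by −0.80. The 13 mitochondrially encoded messenger RNAs took 6.003%, 2.95% and 5.97% of counts in untreated replicates 1, 2 and 3 and 7.89%, 9.90% and 7.37% in treated ones. Untreated replicate 2 thus stood apart, and it was the lowest library for each of the 6 genes. Of 10 colon epithelium markers, 6 (EPCAM, CDH1, KRT8, KRT18, KRT19 and CDX2) averaged at least 5 CPM and CDX1, VIL1 and GPA33 reached at most 1.17 CPM in any library. LGALS4 averaged 0.0527 ± 0.0457 CPM without and 2.35 ± 0.397 CPM with curcumin. CDX2 went the other way, from 25.4 ± 1.19 to 9.63 ± 2.96 CPM, while the means of EPCAM, CDH1, KRT8, KRT18 and KRT19 were higher with curcumin. The summed level of 8 markers of blood, fibroblast and endothelial cells ranged over 29.2 to 35.1 CPM in the untreated group and 39.3 to 96.7 CPM in the treated group. Of these CD3E, a marker of T cells, was at 0 throughout. CD68, a macrophage marker, averaged 2.76 ± 0.581 CPM without and 21.7 ± 8.09 CPM with curcumin, and PECAM1, an endothelial marker, 0.0935 ± 0.0828 and 14.9 ± 9.32 CPM. COL1A1, a fibroblast marker, was 28.6 ± 2.65 and 22.9 ± 12.7 CPM, and the other blood marker PTPRC was at 0 in every untreated library and averaged 0.289 CPM in treated ones. The part of these genes in the results was not tested. In bulk RNA, fewer cells of a kind and less RNA per cell cannot be told apart, nor can fewer copies of mitochondrial DNA and less RNA per copy.

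All 6 transcripts were higher after curcumin under TMM scaling, by folds from 1.90 (MT-CYB) to 3.60 (MT-ATP6). Across all 13718 tested genes, edgeR's quasi-likelihood fit called 56.1% at an adjusted p under 0.05, 27.2% higher and 28.9% lower. The median log2 fold change of the 6 was 1.36, against −0.037 over all genes tested. These sizes lean on untreated replicate 2, the lowest library for each of the 6. Without it all 6 were still called higher, but the median was 1.08. The log2 fold changes then ran from 0.61 (MT-CYB) to 1.57 (MT-ATP6). The treated and untreated libraries did not overlap for any of the 6, as was so for 64.0% of all genes in either direction and 30.9% in the upward one. On library totals, 3 of the 6 were called higher (MT-CO1, MT-CO3 and MT-ATP6) and 0 lower (0 also at an unadjusted p under 0.05), where 9.62% of all genes were called higher and 56.5% lower, and their median was 0.55. In the length-corrected fit, 1 (MT-CO1) was called higher and 0 lower (1, MT-ATP8, was lower at an unadjusted p under 0.05), beside 28.1% and 20.2% of all genes.

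**Figure D1:**
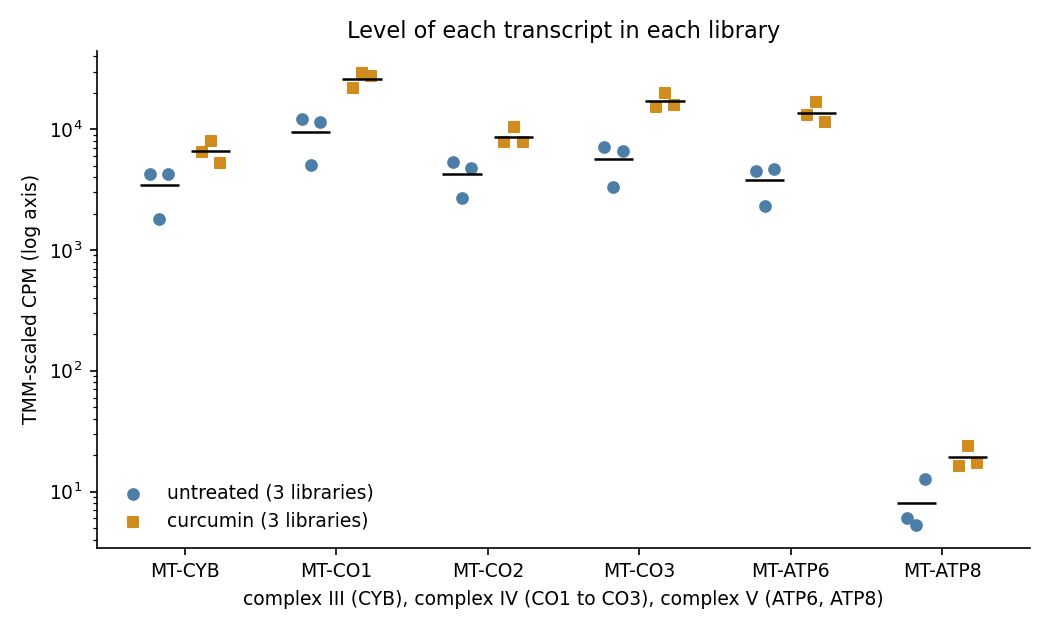
TMM-scaled CPM (log axis) of the 6 transcripts, with a point for each library and a line at the group mean. In each transcript the 3 curcumin libraries lie above the 3 untreated ones, and untreated replicate 2, the middle point, is the lowest untreated library; MT-ATP8 lies far under the others, at 5.26 to 23.9 CPM.

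MT-CYB, the cytochrome b of complex III, had the smallest rise. It stood at 4255, 1796 and 4275 CPM in untreated replicates 1, 2 and 3 and at 6482, 7924 and 5259 CPM in curcumin replicates 1, 2 and 3. All treated libraries were above all untreated ones, with untreated replicate 2 well under its own group. The means were 3442 ± 1425 and 6555 ± 1334 CPM (SD, n = 3), a log2 fold change of 0.93 ± 0.31 (SE; edgeR adjusted p = 0.025). Without untreated replicate 2 it was 0.61 (adjusted p = 0.017), and without curcumin replicate 2 the call was lost (0.76, adjusted p = 0.10). As a plain fraction of the library, MT-CYB was 5529, 2408 and 5678 CPM in untreated and 5208, 5956 and 3763 in treated libraries. On that scale the groups overlapped and there was no call (0.13 ± 0.28, adjusted p = 0.70), nor was there one in the length-corrected fit (0.14, adjusted p = 0.75).

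MT-CO1, the haem- and copper-bearing catalytic subunit of complex IV, was the most abundant of the 6 and ranked 2 or 3 among all genes in every library. It stood at 12055, 5054 and 11513 CPM in untreated and at 21965, 28982 and 27626 CPM in treated libraries. The lowest treated library was above the highest untreated one. The means of 9541 ± 3895 and 26191 ± 3722 CPM gave a log2 fold change of 1.46 ± 0.30 (edgeR adjusted p = 0.0023). MT-CO1 was the 1 transcript of the 6 called higher under all 17 alternative settings, although by no more than 0.65 ± 0.26 (adjusted p = 0.046) on library totals and by 0.93 ± 0.33 (adjusted p = 0.040) in the length-corrected fit.

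MT-CO2 encodes the subunit that takes electrons from cytochrome c. Its levels were 5340, 2682 and 4771 CPM in untreated and 7862, 10332 and 7819 CPM in treated libraries. The groups did not overlap, and curcumin replicate 2 was the highest. It rose by 1.02 ± 0.25 (means 4264 ± 1399 and 8671 ± 1438 CPM, edgeR adjusted p = 0.0060). Per library total it was 6940, 3595 and 6336 in untreated and 6318, 7765 and 5595 in treated libraries, which overlap, and it was not called (0.22 ± 0.23, adjusted p = 0.41). In the length-corrected fit its sign turned (−0.17 ± 0.28, adjusted p = 0.65).

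MT-CO3, a structural subunit of the complex IV core, stood at 7066, 3304 and 6653 CPM in untreated and at 15207, 19872 and 15956 CPM in treated libraries. Every treated library was far above every untreated one. The log2 fold change was 1.58 ± 0.28 (means 5674 ± 2063 and 17011 ± 2505 CPM, edgeR adjusted p = 0.00082). It was called on library totals (0.78 ± 0.24, adjusted p = 0.014) but not after length correction (0.51 ± 0.30, adjusted p = 0.20).

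MT-ATP6, the subunit a of ATP synthase that lines its proton path, had the largest rise of the 6 under TMM scaling, but not after length correction. It stood at 4482, 2295 and 4667 CPM in untreated and at 13132, 16663 and 11390 CPM in treated libraries. Here too the groups were far apart. Means of 3814 ± 1319 and 13728 ± 2686 CPM gave a log2 fold change of 1.85 ± 0.28 (edgeR adjusted p = 0.00033). The call held on library totals (1.05 ± 0.25, adjusted p = 0.0030) but not after length correction (0.64 ± 0.30, adjusted p = 0.11).

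MT-ATP8, a small stalk-side membrane subunit of the same enzyme, gave counts of another order. Its estimated counts were 159, 128 and 325 in untreated and 217, 302 and 222 in treated libraries, which is 6.02, 5.26 and 12.8 CPM against 16.2, 23.9 and 17.3 CPM. Untreated replicate 3 stood well above untreated replicates 1 and 2, and still under every treated library. The log2 fold change was 1.26 ± 0.34 (edgeR adjusted p = 0.0094). Leaving out each library in turn gave from 1.01 (without untreated replicate 2, adjusted p = 0.036) to 1.75 (without untreated replicate 3). The call was kept each time, but the adjusted p reached 0.05 without untreated replicate 1 and 0.044 without curcumin replicate 2. Per library total the values overlapped (7.83, 7.05 and 16.97 against 13.02, 18 and 12.4) and there was no call (0.45 ± 0.33, adjusted p = 0.25). The sign turned after length correction (−1.01 ± 0.38, adjusted p = 0.052). No nuclear gene in that trend was as short as MT-ATP8: the shortest had 359 bases and 76 of 10612 had up to 700, while the lengths used for mitochondrial genes hold hardly any untranslated sequence.

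Compared per length, in TMM-scaled CPM per kilobase, MT-CO3 had the highest mean level in untreated cells (7237 ± 2632), followed by MT-CO2 (6234 ± 2046), MT-CO1 (6187 ± 2526), MT-ATP6 (5601 ± 1937) and MT-CYB (3017 ± 1249). The means of the first 4 lay within 1 SD of each other, a spread that holds the low untreated replicate 2. Within each untreated library MT-CO3 was still the highest (9013, 4214 and 8486), while the order of MT-CO2, MT-CO1 and MT-ATP6 varied. In treated cells the order was MT-CO3 (21698 ± 3195), MT-ATP6 (20159 ± 3945), MT-CO1 (16985 ± 2414), MT-CO2 (12677 ± 2103) and MT-CYB (5745 ± 1169). MT-ATP8 came last in both groups, at 38.8 ± 19.99 and 92.6 ± 20.2. Although MT-ATP8 and MT-ATP6 share an RNA, the per-base count of MT-ATP6 exceeded that of MT-ATP8 by 226, 133 and 111 times in untreated and 246, 212 and 200 times in treated libraries. The other pair read from a single RNA, MT-ND4 and the short MT-ND4L, differed in the same direction, by 41.3, 32.6 and 37.5 times in untreated and 22.7, 25.3 and 22.7 times in treated libraries. No further comparison was therefore made with the per-length level of MT-ATP8.

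A share within the mitochondrial messenger RNAs needs no scaling between libraries, but the shares were not corrected for the trend with transcript length. The 6 transcripts together made up 71.9%, 68.7% and 71.0% of the counts of the 13 mitochondrial messenger RNAs in untreated libraries and 65.9%, 63.6% and 66.1% in treated ones, the rest being the 7 complex I transcripts. Of the 6 shares, 3 did not overlap between the groups, and none passed the test. Among the 7 complex I transcripts, MT-ND3 alone had shares that overlapped. The shares have a common total and so are not independent of each other. MT-CYB went from 8.96 ± 0.712% to 5.91 ± 0.757% (SD, n = 3) and MT-CO2 from 11.5 ± 0.787% to 7.81 ± 0.214%, while MT-ATP6 went from 10.2 ± 0.405% to 12.4 ± 1.19%. For each of these 3 the groups did not overlap (two-sided exact permutation p = 0.1, the lowest value 3 against 3 can give, and 0.2 when adjusted over the 6 shares). MT-CO3 held 15.3%, 15% and 14.8% in untreated and 15.5%, 15.1% and 15.5% in treated libraries (exact permutation p = 0.2). MT-CO1 held 26.1%, 23.0% and 25.6% against 22.4%, 22.01% and 26.8%, with curcumin replicate 3 above the whole untreated group (exact permutation p = 0.7). MT-ATP8 held 0.0218 ± 0.00791% and 0.0172 ± 0.000887% (exact permutation p = 0.4).

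**Figure D2:**
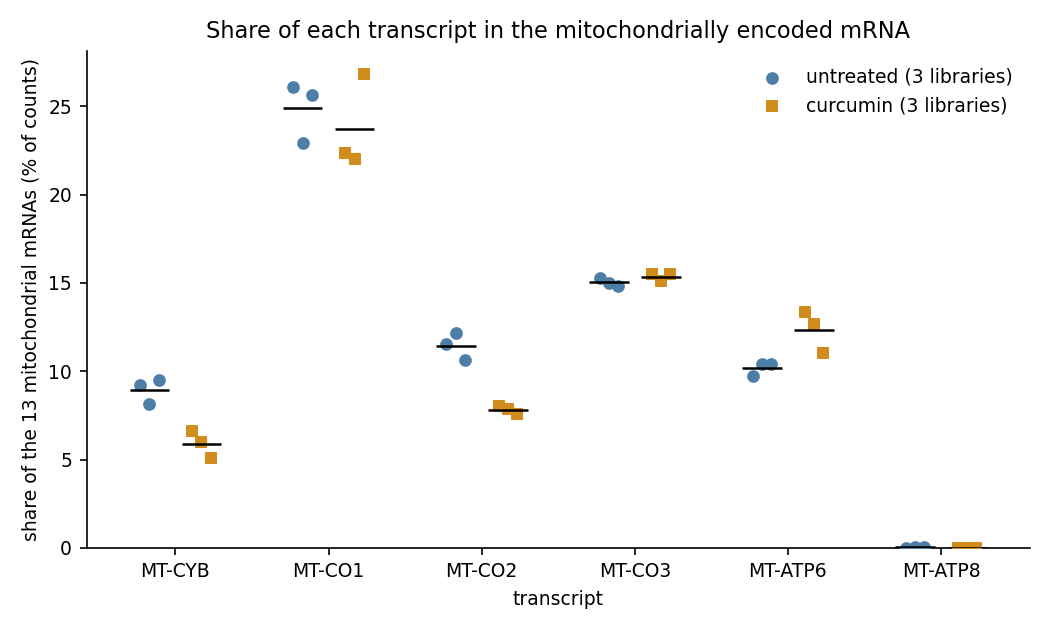
Share of each transcript in the counts of the 13 mitochondrially encoded messenger RNAs, in percent, with a point for each library and a line at the group mean. MT-CYB and MT-CO2 lie lower and MT-ATP6 lies higher in all 3 curcumin libraries, while the groups overlap for MT-CO1, MT-CO3 and MT-ATP8.

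Ratios of counts within a library need no scaling either, and they too were not corrected for the trend with transcript length. MT-ATP6 to MT-CYB was 1.05, 1.28 and 1.09 in untreated and 2.03, 2.10 and 2.17 in treated libraries. MT-ATP6 to MT-CO2 went from 0.891 ± 0.0760 to 1.58 ± 0.110. Within complex IV, MT-CO1 to MT-CO2 went from 2.19 ± 0.272 to 3.04 ± 0.424 and MT-CO3 to MT-CO2 from 1.32 ± 0.0816 to 1.97 ± 0.0648, whereas MT-CO1 to MT-CO3 was 1.66 ± 0.110 and 1.54 ± 0.162. MT-CO2 to MT-CYB was 1.29 ± 0.191 and 1.33 ± 0.140. MT-CO1 to MT-CYB went from 2.78 ± 0.0760 to 4.10 ± 1.01 and MT-CO3 to MT-CYB from 1.69 ± 0.143 to 2.63 ± 0.360. MT-ATP6 to MT-CO3 went from 0.677 ± 0.0370 to 0.805 ± 0.0802. Of 10 ratios compared, 7 did not overlap between the groups (exact permutation p = 0.1 for each, 0.143 adjusted over the 10), and with 3 against 3 libraries no ratio could pass 0.05. In every treated library MT-CYB and MT-CO2 were lower against MT-CO1, MT-CO3 and MT-ATP6 than in any untreated one. The length-corrected fit gave log2 fold changes of 0.93 for MT-CO1, 0.51 for MT-CO3, 0.64 for MT-ATP6, 0.14 for MT-CYB and −0.17 for MT-CO2.

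Read along the genome, the 6 transcripts lay between the complex I transcripts in the size of their change. MT-ND1 and MT-ND2, upstream of MT-CO1, had log2 fold changes of 2.19 ± 0.27 and 2.33 ± 0.24, and downstream of MT-CO3 followed MT-ND3 (1.98 ± 0.20), MT-ND4L (2.48 ± 0.22, the largest of the 13 as reported) and MT-ND4 (1.80 ± 0.28). The short MT-ND3 and MT-ND4L were not called after length correction (0.21 and 0.56, edgeR adjusted p = 0.42 and 0.083). At 346 and 297 bases, both are shorter than the shortest nuclear gene in that trend (359 bases). With the trend fitted on nuclear genes only, a setting chosen after seeing the data, MT-ND4L was called higher (0.72, adjusted p = 0.041). MT-ND3 was not (0.24, adjusted p = 0.38). MT-ND5, which precedes MT-CYB on the genome with MT-ND6 between them, had levels of 1470 ± 517 and 1496 ± 300.3 CPM (0.025 ± 0.26, edgeR adjusted p = 0.94) and was called lower on library totals (−0.77, adjusted p = 0.018). MT-ND6, the 1 messenger RNA of the other strand, fell from 381 ± 157 to 131 ± 24.3 CPM. Whether the MT-ND6 counts hold only RNA of its own strand is unknown, since no source used here gives the use of strand. In all, 5 of the 7 complex I transcripts rose and 1 fell, with a median of 1.98. On library totals 5 rose and 2 fell (median 1.17), and after length correction 3 rose and 1 fell (median 0.56). The all-gene shares that rose and fell were 27.2% and 28.9%, 9.62% and 56.5% on library totals, and 28.1% and 20.2% after length correction. As shares of mitochondrial messenger RNA, MT-ND1 and MT-ND2 held 5.29 ± 0.394% and 5.74 ± 0.991% in untreated and 7.98 ± 0.904% and 9.30 ± 0.614% in treated libraries, without overlap. MT-ND5 held 3.94 ± 0.490% and 1.35 ± 0.188%, the same direction as MT-CYB and MT-CO2.

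**Figure D3:**
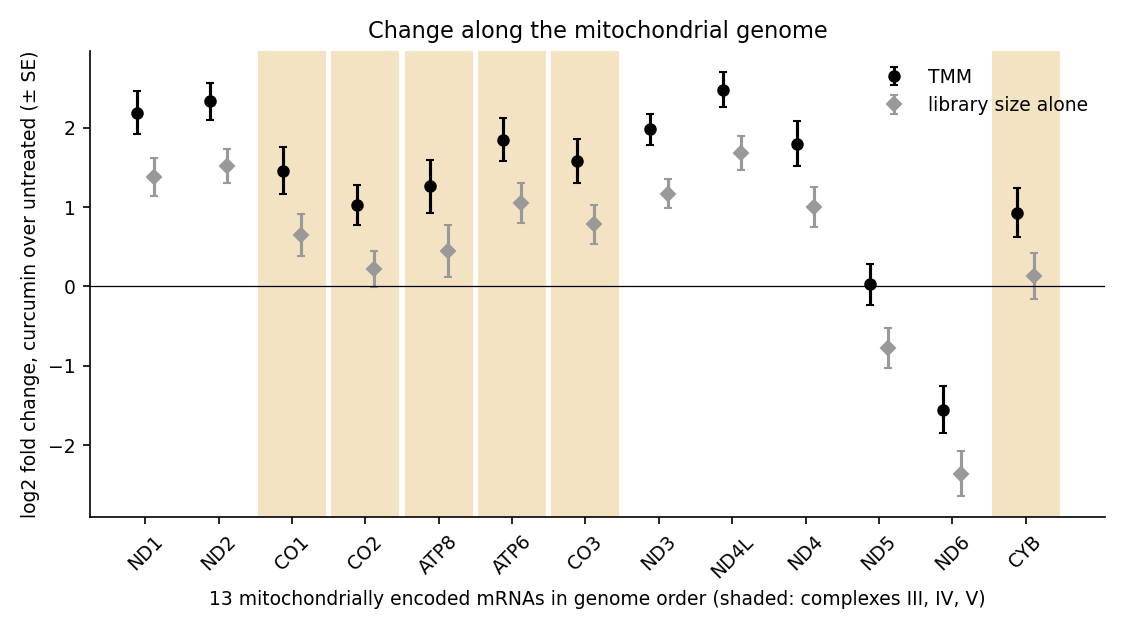
Log2 fold change (curcumin over untreated, bars ± SE) of the 13 mitochondrially encoded messenger RNAs in genome order, under TMM scaling (circles) and library totals, or library size alone (diamonds), with the 6 transcripts of complexes III, IV and V shaded. The low points among the shaded genes are MT-CO2 (1.02) and MT-CYB (0.93) under TMM, and library totals put every gene lower.

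Nuclear subunits of the same complexes mostly rose too. Of 9 nuclear complex III subunits, 7 rose and 1 fell (median log2 fold change 1.05), of 13 tested complex IV subunits 12 rose and 0 fell (median 1.64), and of 18 complex V subunits 16 rose and 0 fell (median 1.41). On library totals the counts were 4 and 2, 10 and 0, and 11 and 0, with medians of 0.25, 0.84 and 0.61. At an unadjusted p under 0.05, 0 subunits of complexes IV and V were lower in edgeR, DESeq2 or limma-voom with TMM or size factors, and 1 of complex V was lower on library totals. After length correction 1 complex V subunit was called lower and 13 higher. Over all genes tested, 27.2% rose and 28.9% fell, with 9.62% and 56.5% on library totals and 28.1% and 20.2% after length correction. The subunit counts were not tested against the rest of the genes. UQCRB and UQCRH, small subunits of complex III, went from 62.9 ± 7.10 to 279 ± 10.2 CPM and from 65.8 ± 8.96 to 316 ± 31.6 CPM, the second a gene with a close copy and so uncertain. The iron-sulphur subunit UQCRFS1 fell from 89.4 ± 18.3 to 58.8 ± 2.63 CPM, with no call after length correction (adjusted p = 0.052). In complex IV, COX7C went from 39.8 ± 3.89 to 192 ± 23.6 CPM and COX6C from 31.4 ± 5.21 to 120 ± 5.70 CPM. In complex V, the membrane subunits encoded by ATP5MG and ATP5MK went from 30.6 ± 3.11 to 141 ± 20.4 CPM and from 28.4 ± 3.07 to 125 ± 14.4 CPM. Length correction lowered the log2 fold changes of UQCRH, COX6C and ATP5MK from 2.26, 1.93 and 2.14 to 1, 1.16 and 1.2, with the calls kept.

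The ratio of mitochondrial to nuclear counts in a complex overlapped between the groups, with untreated replicate 2 lowest throughout. MT-CYB over the 9 nuclear complex III genes was 4.97, 1.94 and 6.21 in untreated and 3.45, 4.08 and 3.13 in treated libraries. For complex IV the ratio, over 16 nuclear genes, was 27.2, 12.9 and 32.9 against 18.0, 21.9 and 18.2. In both complexes untreated replicates 1 and 3 were above, and replicate 2 below, all treated libraries. For complex V the ratio over 18 nuclear genes was 2.13, 1.004 and 2.80 against 2.79, 3.33 and 2.50, where the treated libraries overlapped untreated replicate 3.

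**Figure D4:**
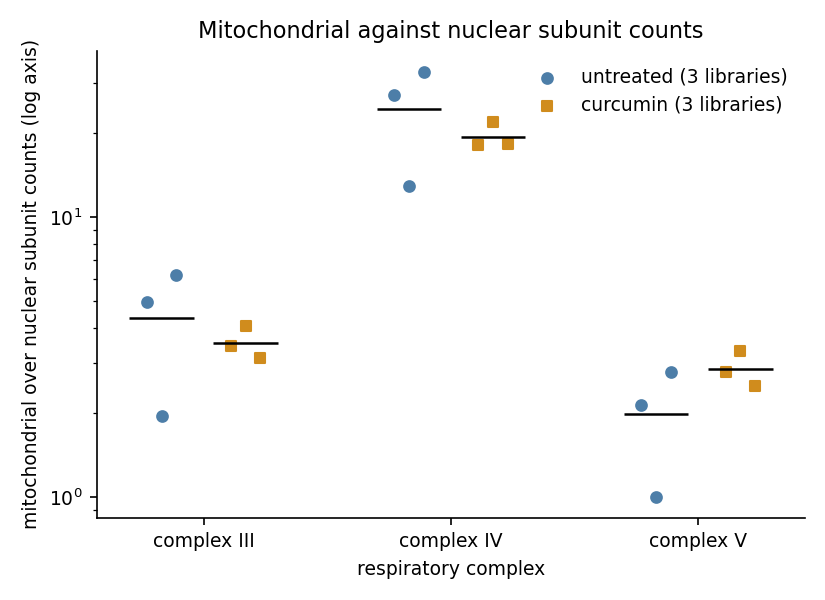
Counts of the mitochondrially encoded subunits over the summed counts of the nuclear subunits of the same complex (log axis), with a point for each library and a line at the group mean. In complexes III and IV the treated libraries sit inside the untreated range, which runs from 1.94 to 6.21 and from 12.9 to 32.9.

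Of 15 tested genes that copy and transcribe mitochondrial DNA, 3 rose and 7 fell (median −0.56), against 1 and 11 on library totals and 1 and 5 after length correction. The shares that rose and fell over all genes were 27.2% and 28.9%, 9.62% and 56.5% on library totals, and 28.1% and 20.2% after length correction. These counts, like those of the factor lists that follow, were not tested against the rest of the genes. POLRMT, the mitochondrial RNA polymerase, was 147, 168 and 141 CPM in untreated and 127, 106 and 73.3 CPM in treated libraries (−0.57 ± 0.20, edgeR adjusted p = 0.029). Leaving out untreated replicate 1, untreated replicate 2, curcumin replicate 2 and curcumin replicate 3 in turn ended the call (adjusted p = 0.061, 0.079, 0.066 and 0.054), and so did length correction (adjusted p = 0.20). TFAM, which packs mitochondrial DNA and starts its transcription, fell from 39.0 ± 4.06 to 25.1 ± 2.36 CPM, not called after length correction (−0.12, adjusted p = 0.55). The polymerase gene POLG fell from 65.4 ± 8.39 to 31.9 ± 2.05 CPM and the transcription termination factor MTERF1 from 6.34 ± 1.17 to 1.57 ± 0.261 CPM. For POLG the log2 fold change was −1.04, and −0.68 after length correction, still called. The mitochondrial topoisomerase TOP1MT rose from 36.8 ± 3.58 to 129 ± 1.79 CPM, and POLG2, the accessory subunit of the polymerase, was 10.2 ± 0.268 and 17.5 ± 4.55 CPM, a rise (adjusted p = 0.012) whose sign turned on library totals (−0.033). POLG2 was also not called after length correction (0.28, adjusted p = 0.35) or with the 100 most abundant genes left out of the library size (0.44, adjusted p = 0.10).

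Of 23 factors that cut, tail, hold or degrade mitochondrial RNA, 9 rose and 8 fell (median −0.11), against 1 and 15 on library totals and 7 and 8 after length correction. Over all genes tested, 27.2% rose and 28.9% fell, with 9.62% and 56.5% on library totals and 28.1% and 20.2% after length correction. The number that rose was 4 without untreated replicate 1 or 3, 5 without curcumin replicate 2 and 6 without curcumin replicate 1. PRORP, the nuclease that cuts the 5′ ends of transfer RNAs out of the precursor, fell from 25.8 ± 5.80 to 4.80 ± 0.831 CPM. MTPAP, which adds the poly(A) tails, fell from 25.6 ± 2.03 to 7.24 ± 0.103 CPM. SLIRP rose from 4.62 ± 1.42 to 18.4 ± 2.79 CPM, while LRPPRC, its partner in keeping mitochondrial messenger RNAs stable, was 230 ± 8.76 and 282 ± 14.8 CPM (0.30 ± 0.13, edgeR adjusted p = 0.071). For SLIRP the log2 fold change went from 1.99 to 1.04 after length correction, still called. LRPPRC was called higher with RLE factors (0.34, adjusted p = 0.044), in DESeq2 (0.34, adjusted p = 0.020), with a mean of at least 50 counts (0.33, adjusted p = 0.037) and after length correction (0.95, adjusted p = 5e-04), and lower on library totals (−0.51, adjusted p = 0.0091). SUPV3L1, the helicase of the mitochondrial RNA degrading complex, rose from 28.5 ± 2.15 to 71.2 ± 27.9 CPM, with no call on library totals (adjusted p = 0.074).

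Of 33 assembly factors of complexes III to V, 11 rose and 11 fell (median 0.26), against 1 and 16 on library totals and 7 and 12 after length correction. Without curcumin replicate 2 the numbers were 8 and 6, and without untreated replicate 2 they were 10 and 7. Among all genes tested, 27.2% rose and 28.9% fell, with 9.62% and 56.5% on library totals and 28.1% and 20.2% after length correction. TMEM177, which helps stabilise the MT-CO2 protein, fell from 16.7 ± 4.11 to 1.15 ± 0.428 CPM, and SCO1, a copper carrier for the same protein, from 32.1 ± 0.797 to 10.2 ± 2.04 CPM. COX17, which passes copper to the SCO proteins, rose from 5.79 ± 2.45 to 22.3 ± 3.14 CPM. Length correction left both calls but moved SCO1 from −1.65 to −0.74 and COX17 from 1.94 to 0.81 on the log2 scale. UQCC1, which serves the early assembly of cytochrome b, rose from 24.7 ± 3.66 to 46.9 ± 2.28 CPM, with no call on library totals (adjusted p = 0.57). Among 7 tested regulators of mitochondrial biogenesis 1 rose and 2 fell (median 0.040), against 0 and 5 on library totals (0 rising also at an unadjusted p under 0.05) and 3 and 2 after length correction. The coactivator PPARGC1B fell from 15.7 ± 3.02 to 4.196 ± 1.05 CPM and the transcription factor NRF1 from 21.99 ± 3.53 to 7.90 ± 1.86 CPM. For PPARGC1B, length correction moved the log2 fold change from −1.91 to −0.96, still called. The 1 that rose, YY1 (160 ± 1.60 to 226 ± 61.1 CPM, edgeR adjusted p = 0.044), was not called when untreated replicates 1, 2 and 3 and curcumin replicates 2 and 3 were left out in turn (adjusted p = 0.12, 0.085, 0.10, 0.091 and 0.15), and its sign turned on library totals (−0.32). With no filter the adjusted p was 0.06, and it was 0.47 when library sizes left out the 100 most abundant genes.

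Across the 6 libraries, the profile of the 6 transcripts (mean log2 CPM of 10.9, 9.96 and 11.1 in untreated and 11.9, 12.3 and 11.9 in treated libraries) was set beside 10751 nuclear genes of at least 5 CPM. The 5 with the highest Pearson correlation were LINC00869 (0.996), IFITM3 (0.993), FRS3 (0.990), CSTA (0.990) and ZNF768 (0.987). These are a description over 6 libraries that share depth and scaling, picked as the extreme of many. IFITM3, an interferon-inducible membrane protein, was 367, 187 and 357 CPM in untreated and 688, 797 and 735 CPM in treated libraries, with the same low untreated replicate 2. ZNF768 turned from 0.40 to −0.40 and LINC00869 from 0.65 to −0.16 on the log2 scale on library totals.

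**Figure D5:**
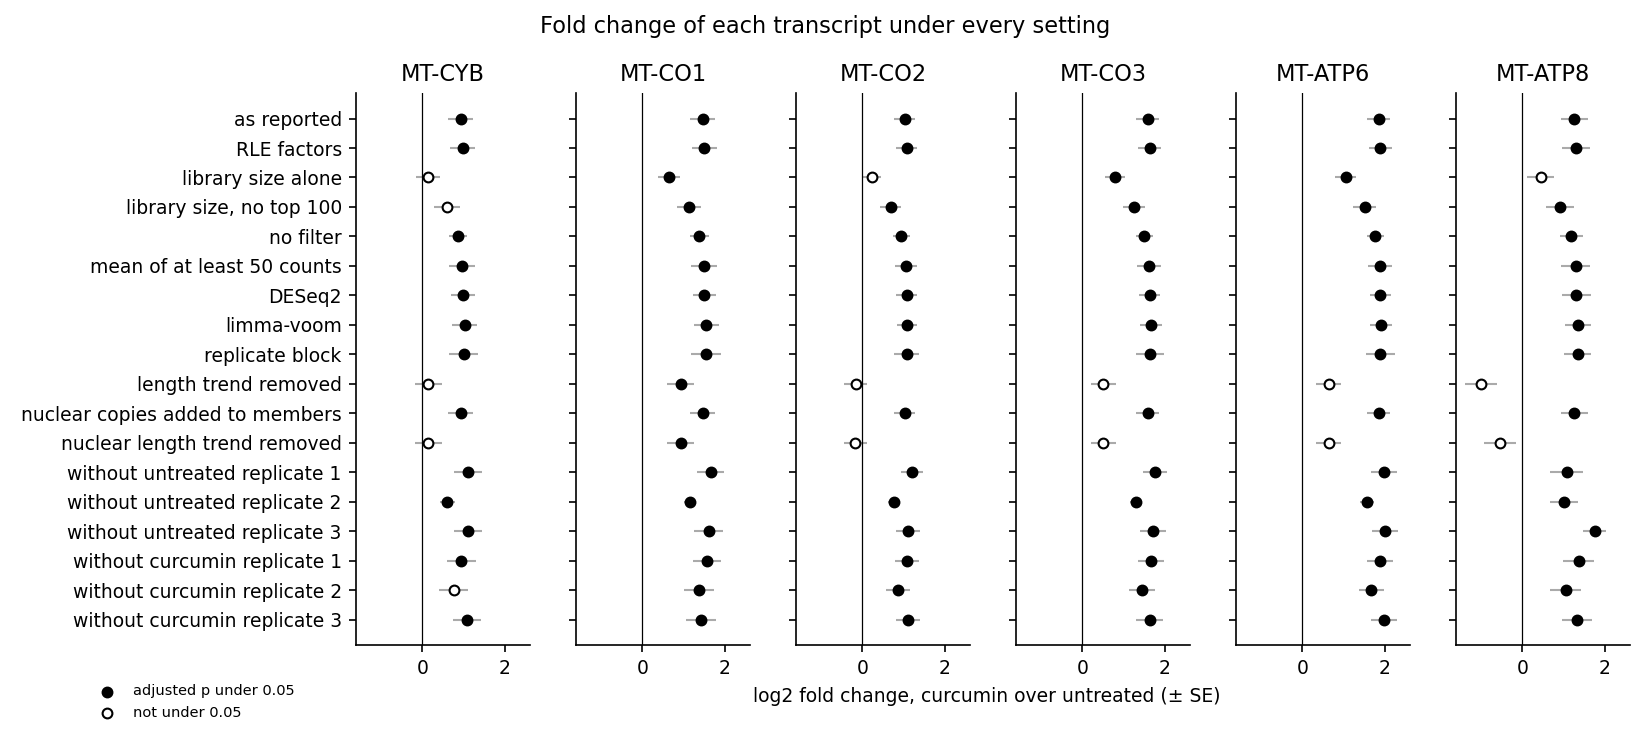
Log2 fold change (curcumin over untreated, bars ± SE) of each transcript as reported and under 17 other settings, filled where the adjusted p was under 0.05 and open where it was not. MT-CO1 is filled throughout, while the open points of MT-CO2, MT-CO3, MT-ATP6 and MT-ATP8 come from library size alone or a removed length trend, and those of MT-CYB also from a library size without the 100 most abundant genes and from leaving out curcumin replicate 2.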

How the data were processed

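The authors deposited a table of estimated counts per gene (expected read counts, 24.8% of values not whole), not scaled between libraries. Libraries were made with a SMARTer mRNA-Seq kit, per the labels' protocols. No source used here gives the aligner, the counting tool or the use of strand. Mouse builds (GRCm38, mm10) stand in the submitters' processing notes, while all 35106 rows carry human Ensembl identifiers, and 35003 were found in GENCODE release 29, which gave positions, lengths and sequences. The table was read as human.

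Counts were rounded, filtered with filterByExpr (minimum count 10, total 15), given TMM factors and fitted by quasi-likelihood in edgeR 4.0.16, comparing 3 curcumin with 3 untreated libraries, with Benjamini-Hochberg adjustment over 13718 genes and a threshold of 0.05 (R 4.3.3). CPM are TMM-scaled unless said to be per library total. Errors of log2 fold changes are standard errors. A floor of 3 counts is 0.148 to 0.180 CPM, and covers counting error only, since PCR reads lacking molecular identifiers are not independent. Replicate pairs differed beyond sampling noise (chi-square per degree of freedom 11.6 to 75.3). Alternatives used RLE factors, library totals alone, library size without the 100 most abundant genes, other filters (none, or a mean of at least 50 counts), DESeq2 1.42.0, limma-voom (limma 3.58.1), a replicate block, each library left out, nuclear copies added, and a loess trend of log2 count with transcript length removed (span 0.3). Shares and ratios were compared with two-sided exact permutation tests. Tested on simulated data of this design (13718 genes), the gene test called 42 of 100 genes changed by a fold of 2, 91 of 100 changed by a fold of 4 and 6 of 13518 unchanged.

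The members and gene lists were chosen with earlier results of these data known. Besides the members, genes named are up to 2 rising and 2 falling genes per list, lowest adjusted p first, POLRMT, TFAM, LRPPRC, SLIRP, the MT-ND genes, copies of at least 5 CPM and the 5 genes most correlated with the members. EPCAM, CDH1, KRT8, KRT18, KRT19, CDX1, CDX2, VIL1, LGALS4, GPA33, CD3E, PTPRC, CD68, COL1A1 and PECAM1 are markers. PRORP and ATP5MK are listed under their older symbols KIAA0391 and ATP5MD. The mitochondrial ribosomal RNAs and SURF1 were not analysed here.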

Additional observations from a re-analysis of the deposited data

How the results depend on the processing

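Of 17 alternatives, MT-CO1 kept its direction and call in all, MT-CO3 and MT-ATP6 in 15 each, MT-CO2 and MT-ATP8 in 14 each and MT-CYB in 12. With library size alone the number called higher fell from 6 to 3: MT-CYB (log2 0.13), MT-CO2 (0.22) and MT-ATP8 (0.45) had no call. With library sizes that leave out the 100 most abundant genes MT-CYB had none (0.59, edgeR adjusted p = 0.12). With the length trend removed only MT-CO1 (1 of 6) was called, with 0.14 for MT-CYB, −0.17 for MT-CO2, 0.51 for MT-CO3, 0.64 for MT-ATP6 and −1.01 for MT-ATP8. With the trend fitted on nuclear genes only, a setting chosen after seeing the data, these were 0.14, −0.17, 0.50, 0.64 and −0.55 (again 1 called). Why these settings differ was not tested. Leaving out each library gave 0.61 to 1.1 for MT-CYB (no call without curcumin replicate 2), and 5 to 6 transcripts called. It gave 1.68 to 2.85 percentage points for the share of MT-ATP6, 2.19 with all libraries. Shares without MT-ND6 in the sum kept their direction.

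The replicate numbers were not taken as a pairing, since same-numbered libraries correlated in their deviations from the group means at 0.040, 0.023 and 0.11. With the replicate block, 6 of 6 transcripts were still called higher, and 3683 genes in all were higher and 4011 lower, against 3732 and 3964. Calls over all genes with library size alone were 1320 higher and 7747 lower, and 2635 and 5465 when the 100 most abundant genes were left out of it. MT-ATP8 had the fewest counts of the 6, at 128 to 325 a library, and its standard error (0.34) was close to those of MT-CYB (0.31) and MT-CO1 (0.30).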
